A study of Mus musculus with 20 samples.

Results

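Bivalent and monovalent forms of 1 MuSK-binding antibody arm were compared in cultured mouse muscle. The comparison takes 8 of the 20 libraries of the study, chosen by their labels, 4 that received bivalent 13-3B5 and 4 that received agrin with 13-3B5xb12. C2C12 cells were used, which are mouse myoblasts grown as a line and able to fuse into myotubes; they had 5 days in horse serum to differentiate and were then treated for 16 h. The bivalent group received 7.7 nM of 13-3B5, a human IgG4 with MuSK-binding sites on both arms, described as activating, and no agrin. The monovalent group received 7.7 nM of 13-3B5xb12, in which 1 arm is 13-3B5 and the other is b12, a control specificity, described as inhibiting, together with 0.1 nM neural agrin. The other groups, each of 4 libraries, received b12 alone (the control), agrin with b12, or agrin with 11-3F6xb12, at the same doses. Valency and agrin therefore differ together between both groups, and their parts in a difference cannot be told apart in the direct comparison. The labels call the replicates biological and give 4 per treatment, and libraries were paired by replicate number. C2C12 is 1 cell line without a nerve, so no motor terminal was present.

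MuSK is the receptor tyrosine kinase that organises the postsynaptic side of the neuromuscular junction. Agrin released by the motor nerve binds Lrp4, which brings MuSK molecules together, and the adaptor Dok7 stabilises the active dimer inside the cell. Active MuSK drives clustering of acetylcholine receptors through rapsyn and raises transcription of synaptic genes in the nuclei beneath the junction. An antibody with 2 MuSK-binding arms can bring receptors together without agrin, whereas an antibody with 1 such arm cannot, and autoantibodies of the IgG4 class exchange arms and cause a form of myasthenia gravis.

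The transcripts first examined were the receptor subunits, and sequence upstream of 3 of them is given because these are the promoters through which muscle activity and synaptic signals are known to act. The E-box, CANNTG, which reads the same form on both strands, is bound by myogenic factors such as MyoD and myogenin, and the N-box, CCGGAA or TTCCGG on the other strand, is the ETS-factor motif of synaptic promoters. Each sequence is the 250 bases before the RefSeq start in GRCm38.p6, 5′ to 3′, with E-boxes and N-boxes in capitals. The upstream sequence of Ogn, the gene with the smallest p-value, is shown with them.
Chrna1, chr2:73580339-73580588, minus strand: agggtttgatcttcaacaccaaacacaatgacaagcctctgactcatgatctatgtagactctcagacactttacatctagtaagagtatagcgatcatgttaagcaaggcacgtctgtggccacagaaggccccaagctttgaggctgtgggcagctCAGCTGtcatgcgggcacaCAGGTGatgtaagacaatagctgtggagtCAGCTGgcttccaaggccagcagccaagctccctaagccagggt
Chrnb1, chr11:69795938-69796187, minus strand: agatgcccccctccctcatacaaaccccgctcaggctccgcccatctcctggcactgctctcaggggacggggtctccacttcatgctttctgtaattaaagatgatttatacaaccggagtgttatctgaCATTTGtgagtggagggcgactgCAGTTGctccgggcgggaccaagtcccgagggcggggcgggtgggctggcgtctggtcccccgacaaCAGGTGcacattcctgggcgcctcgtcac
Chrne, chr11:70619195-70619444, minus strand: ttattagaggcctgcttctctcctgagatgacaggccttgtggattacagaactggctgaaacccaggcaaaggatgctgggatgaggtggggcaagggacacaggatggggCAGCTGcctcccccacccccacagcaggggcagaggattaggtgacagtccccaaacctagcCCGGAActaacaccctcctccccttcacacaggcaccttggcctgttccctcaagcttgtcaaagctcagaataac
Ogn, chr13:49607765-49608014, plus strand: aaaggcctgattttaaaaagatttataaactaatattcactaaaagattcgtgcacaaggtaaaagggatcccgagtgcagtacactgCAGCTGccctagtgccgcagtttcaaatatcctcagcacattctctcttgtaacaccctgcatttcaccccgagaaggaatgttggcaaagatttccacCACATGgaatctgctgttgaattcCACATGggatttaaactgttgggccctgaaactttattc
The Chrna1, Chrnb1 and Ogn windows held 3 E-boxes each, and 12.2% of 32851 windows of this length hold at least 3. Chrne held 1 E-box and 1 N-box. The windows of Omd and Aspn, genes described below with Ogn, held 0 and 1 E-boxes and are not printed. An E-box was found in 66.2% of all such windows and an N-box in 12.03%. A match in letters is not a measured binding site.

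The muscle acetylcholine receptor is a pentamer, with the gamma subunit in the fetal form and the epsilon subunit in the adult form. Fitted values of all 5 subunits were above 0, between 0.01 and 0.16 on the log2 scale, and 0 of 5 passed adjustment. Chrna1 (ENSMUSG00000027107, GRCm38 chromosome 2, 73563215 to 73580338), which encodes the alpha subunit, had 602, 605, 632 and 621 CPM in bivalent replicates 1 to 4 and 529, 562, 570.1 and 545 CPM in monovalent replicates 1 to 4. CPM is the count scaled to library size after TMM normalisation. All 4 bivalent libraries lay above all 4 monovalent ones, with a log2 fold change, bivalent minus monovalent, of 0.16 (SE 0.06, 95% interval 0.04 to 0.27, edgeR adjusted p = 0.835). Chrnb1 (ENSMUSG00000041189, chromosome 11, 69784036 to 69795943), the beta subunit, had 119.9, 136, 116 and 121 CPM with the bivalent antibody and 112, 112, 111 and 112 CPM with the monovalent one. These groups did not overlap either, with a log2 fold change of 0.14 (SE 0.07, interval 0.00 to 0.27, edgeR adjusted p = 0.835). Without replicate 1 of both groups Chrna1 was at 0.15 (SE 0.06) and Chrnb1 at 0.15 (SE 0.07). With only monovalent replicate 1 left out they were at 0.14 (SE 0.06) and 0.12 (SE 0.07). Groups without overlap were found for 3.25% of the 14605 genes tested.

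Chrnd, the delta subunit, had 151, 142, 120.1 and 116 CPM against 116, 142.5, 114 and 114 CPM. The groups overlapped, and monovalent replicate 2 stood above the other 3 of its group (log2 fold change 0.12, SE 0.07). Without replicate 1 of both groups its value was 0.03 (SE 0.07). Chrng, the gamma subunit, had 79.5, 79.98, 77.98 and 81.5 CPM against 88.6, 89.4, 73.8 and 67.6 CPM, and Chrne, the epsilon subunit, had 2.79, 4.14, 2.33 and 3.34 CPM against 3.43, 2.47, 2.67 and 2.75 CPM. Both pairs of groups overlapped, and their 95% intervals ran from -0.26 to 0.29 for Chrng and from -0.44 to 0.69 for Chrne. Means in the other groups were 589 ± 17.4 CPM in the control, 565 ± 27.0 with agrin and b12 and 593 ± 29.4 with agrin and 11-3F6xb12 for Chrna1 (SD, n = 4 each). The bivalent mean of 615 ± 13.7 CPM and the monovalent mean of 552 ± 18.2 CPM were the highest and the lowest of the 5.

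**Figure D1:**
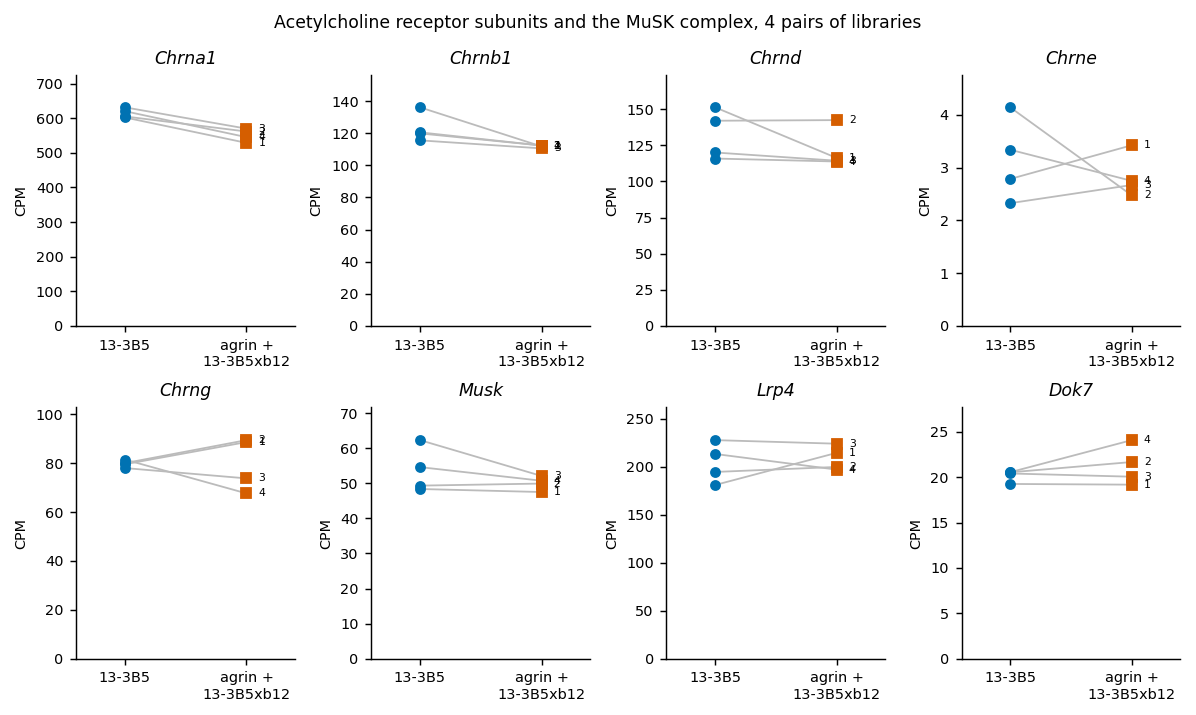
CPM (vertical axes, from 0) of the 5 acetylcholine receptor subunits and of Musk, Lrp4 and Dok7 in the 4 bivalent 13-3B5 libraries (circles) and the 4 libraries with agrin and 13-3B5xb12 (squares), with lines joining the same replicate number. Chrna1 and Chrnb1 show no overlap between the groups, and the other 6 genes overlap.

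Of the genes of the receptor complex, 0 of the 5 described here passed adjustment. Musk (ENSMUSG00000057280, chromosome 4, 58285960 to 58374303), the target of the antibody, had 48.4, 49.3, 62.3 and 54.6 CPM with the bivalent form and 47.5, 49.9, 52.1 and 50.7 CPM with the monovalent form. The groups overlapped, with a log2 fold change of 0.10 (SE 0.08) and a 95% interval from -0.07 to 0.27. Lrp4, the agrin receptor, had 181, 194, 228 and 213 CPM against 214, 199.7, 224 and 197 CPM (log2 fold change -0.04, interval -0.17 to 0.10). It was 0.03 (SE 0.07) without replicate 1, and 0.01 with length offsets, which are described below. The intervals were -0.31 to 0.17 for Dok7, -0.28 to 0.34 for Agrn, the gene of the cells' own agrin, and -0.06 to 0.21 for Rapsn, the gene of the receptor-clustering protein rapsyn. A difference of 1.5-fold either way lay outside the interval for each of these 5 genes. With length offsets Rapsn was at -0.00. Musk mRNA was the quantity measured, and MuSK protein at the cell surface was not.

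Over the transcriptome, edgeR's quasi-likelihood test with the replicate number as a block called 0 of 14605 genes at an adjusted p-value under 0.05 (0%). The lowest adjusted value, 0.448, belonged to Ogn, for which DESeq2 gave 0.0670 and limma's voom 0.165. An unadjusted p-value under 0.05 was found for 810 genes (5.55%), 448 higher with the bivalent antibody (3.07%) and 362 lower (2.48%). DESeq2's Wald test and limma's voom with quality weights also called 0 genes, and put 902 and 762 below 0.05 before adjustment. Without the block 0 genes were called and 633 were below 0.05 (4.33%). With replicate 1 of both groups left out, 0 of 14897 genes were called and 572 had an unadjusted p-value under 0.05 (3.84%), 2.04% higher and 1.8% lower. Of the 810 genes, 303 were again under 0.05. Both fits share most of their libraries, so this overlap is no independent support.

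The measurements were precise for well expressed genes. Among 8255 genes with a mean of at least 10 CPM over the 8 libraries, the median SE was 0.10 and the 95% interval excluded a 2-fold difference either way for 99.9%. It excluded a 1.5-fold difference for 96.3% of them. Among 3890 genes between 1 and 10 CPM these shares were 72.9% and 27.9%. For 2459 genes under 1 CPM the median SE was 0.83, so that a 2-fold difference was not detectable at this depth for nearly all of them. These intervals are per gene and not adjusted for the number of genes.

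**Figure D2:**
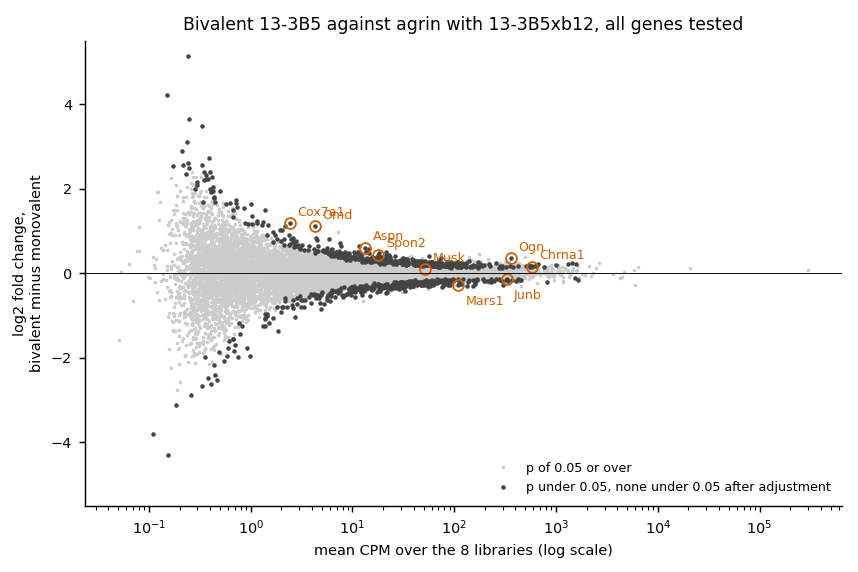
Log2 fold change, bivalent 13-3B5 minus agrin with 13-3B5xb12, against the mean CPM of the 8 libraries on a log axis for the 14605 genes tested, with dark points for the 810 genes below 0.05 before adjustment and orange circles around named genes. The spread widens below 1 CPM, and Ogn, at 0.35, has the smallest p-value.

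The gene with the smallest p-value encodes a matrix protein. Ogn (ENSMUSG00000021390, chromosome 13, 49608046 to 49624501) encodes osteoglycin, a secreted small leucine-rich proteoglycan. It had 474, 474, 347 and 324 CPM with the bivalent antibody and 329, 371, 277 and 278 CPM with the monovalent one. The bivalent library was higher in 4 of 4 pairs, although the groups overlapped, since replicates 1 and 2 were higher than 3 and 4 in both. The log2 fold change was 0.35 (SE 0.07, interval 0.21 to 0.50, edgeR adjusted p = 0.448), and 0.30 (SE 0.08) without replicate 1. Calls depended on the use of the filter for low counts. With no filter 17 of 26190 genes passed in edgeR, 13 higher with the bivalent antibody and 4 lower. All 17 were also tested in the main fit, with mean counts over the 20 libraries from 109.65 to 128320. None of the 17 was a gene that the filter had removed. Ogn, Omd, Aspn and Mymx were the 4 of them that the naming rule holds. The smallest adjusted p-values there were those of Cox7b and Rpl41, both 5.71e-05, and Malat1, 6.97e-05, at log2 fold changes of 0.44, 0.39 and -0.27. These 3 were named after their values were seen.

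Omd (chromosome 13, 49582462 to 49592822), which encodes osteomodulin, and Aspn (chromosome 13, 49544443 to 49567565), which encodes asporin, belong to the same protein family and lie beside Ogn. Omd had 5.86, 7.42, 4.70 and 5.78 CPM against 1.42, 3.39, 2.54 and 3.40 CPM, with no overlap (log2 fold change 1.12, SE 0.31). Aspn had 15.6, 21.0, 14.9 and 13.4 CPM against 12.8, 11.2, 9.12 and 9.30 CPM, also with no overlap (0.60, SE 0.18). Adjusted p-values in edgeR were 0.835 for both, and without replicate 1 the values were 0.92 (SE 0.30) for Omd and 0.70 (SE 0.20) for Aspn. Genes higher with the bivalent antibody in 4 of 4 pairs made up 7.53% of those tested.

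Spon2, which encodes the secreted matrix protein spondin 2, had 24.3, 26.1, 15.6 and 17.0 CPM against 15.9, 20.3, 12.6 and 12.1 CPM (0.44, SE 0.11). Tspan8, a tetraspanin of the cell surface, had 30.6, 35.4, 18.1 and 22.2 CPM against 27.0, 22.5, 13.4 and 18.5 CPM (0.38, SE 0.13). Both were higher with the bivalent antibody in 4 of 4 pairs with overlapping groups, and both had an adjusted p-value of 0.835 in edgeR. Ogn, Aspn, Spon2 and Tspan8 were named in earlier results on these libraries, so their place here is not independent evidence. Hp and mt-Nd1 were named there too. Hp was at -0.22 (SE 0.34), higher with the bivalent antibody in 2 of 4 pairs, and mt-Nd1 at 0.06 (SE 0.09), higher in 3 of 4.

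In the 5 treatments the monovalent group had the lowest mean of Ogn, Omd, Aspn, Spon2 and Tspan8, and the group with agrin and 11-3F6xb12 the highest. Ogn had 364 ± 75.7 CPM in the control, 379 ± 82.8 with agrin and b12 and 565 ± 109.8 with agrin and 11-3F6xb12 (SD, n = 4 each). Its means were 405 ± 80.5 CPM with bivalent and 314 ± 45.3 CPM with monovalent 13-3B5. For Ogn the log2 fold change of the bivalent group against the control was 0.15 (SE 0.07), and that of the monovalent group against agrin with b12 was -0.26 (SE 0.07). For Aspn these were 0.61 (SE 0.18) and -0.60 (SE 0.18). Neither comparison called a gene, and 579 (3.96%) and 733 (5.02%) of those tested were below 0.05 before adjustment.

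**Figure D3:**
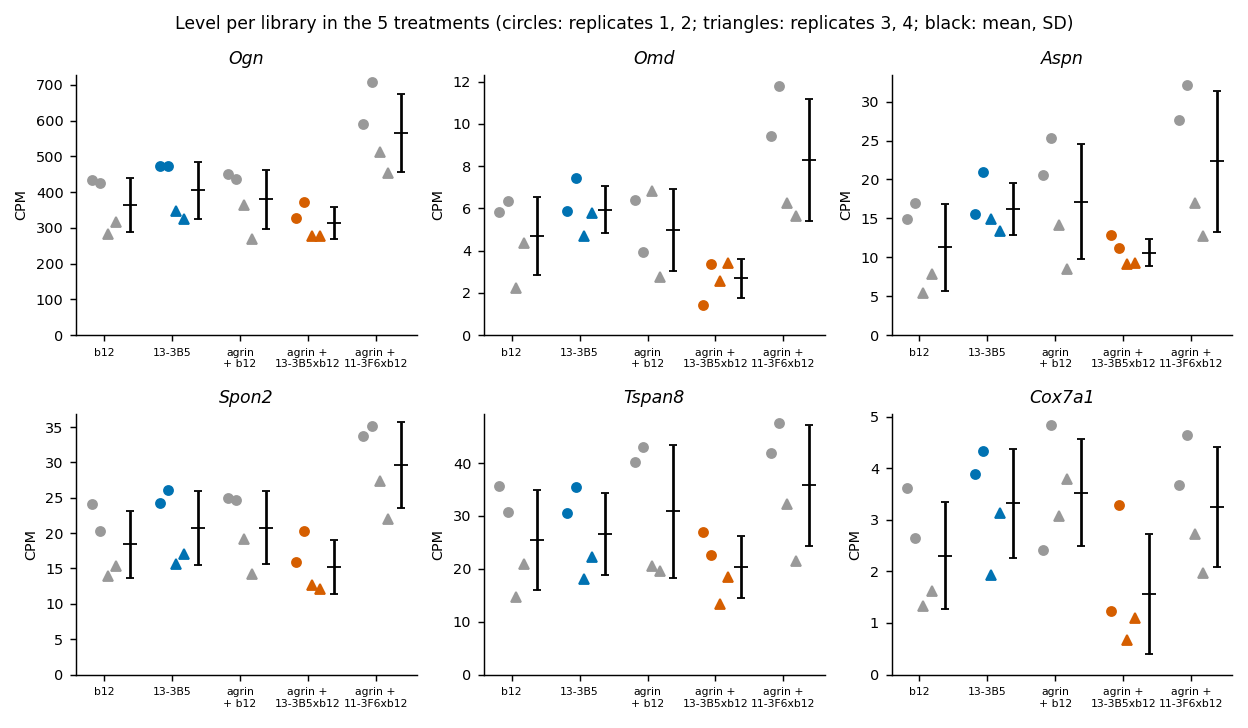
CPM per library (vertical axes, from 0) of Ogn, Omd, Aspn, Spon2, Tspan8 and Cox7a1 in the 5 treatments, circles for replicates 1 and 2, triangles for replicates 3 and 4, with the mean and SD of 4 libraries in black. Agrin with 13-3B5xb12 (orange) has the lowest mean of all 6 genes, at 314 CPM for Ogn.

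The rule for naming took the 24 genes with the smallest p-values among those with 1 direction in 4 of 4 pairs, and none of them passed adjustment. Of these, 19 were higher with the bivalent antibody and 5 lower, and in 12 the groups did not overlap. Over all genes tested, 3.25% had groups without overlap and 14.6% had pairs of 1 direction. Since small p-values and 1 direction chose the 24, these counts are a description. The same holds without replicate 1, where 23 were below 0.05 before adjustment. Trappc2 was not, with 0.43 (SE 0.12) over 4 pairs and 0.22 (SE 0.11) without replicate 1.

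Cox7a1, the muscle and heart isoform of a cytochrome c oxidase subunit, had 3.89, 4.33, 1.93 and 3.13 CPM against 1.23, 3.28, 0.679 and 1.09 CPM (log2 fold change 1.19, SE 0.32). Jpt1 had 149, 148, 168 and 148 CPM against 107, 119, 135 and 143 CPM with no overlap (0.29, SE 0.07). Fdft1, which encodes squalene synthase of the cholesterol pathway, had 67.97, 66.3, 96.4 and 81.3 CPM against 51.5, 64.6, 72.1 and 61.8 CPM (0.31, SE 0.08). H2-Q4, an MHC class I gene with close paralogues between which reads may have been split, had 7.59, 7.11, 6.59 and 8.22 CPM against 3.52, 4.84, 3.90 and 4.76 CPM (0.80, SE 0.22). H2ac8, a replication-dependent histone gene, had at most 2.96 CPM in any of the 8 libraries. The edgeR adjusted p-value was 0.835 for each of these.

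Lower with the bivalent antibody was Mars1, the cytosolic methionyl-tRNA synthetase, at 97.5, 99.98, 91.8 and 107 CPM against 122, 117, 126 and 118 CPM. Its groups did not overlap (-0.28, SE 0.07, and -0.27 without replicate 1). Mgat3, a glycosyltransferase that adds the bisecting sugar to N-glycans, had 20.6, 22.6, 19.6 and 19.7 CPM against 26.7, 25.4, 29.1 and 25.6 CPM with no overlap (-0.37, SE 0.10). Pi15, Sbno2 and Kansl2 were the other 3, at -0.43, -0.27 and -0.23 with overlapping groups. The remaining genes of the 24 were Rmc1 (0.34), Sms (0.25), Gm35019 (0.64), Atpaf2 (0.43), Il12a (0.49), Swsap1 (0.78), Hikeshi (0.41), Tomm34 (0.50), Ly6a2 (0.71) and Srpx2 (0.27), log2 fold changes all higher with the bivalent antibody.

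Lists of genes with known roles were read against all genes tested, of which 5.55% were below 0.05 before adjustment and whose median log2 fold change was 0.00. After adjustment 0 members of any list passed. On the list of the MuSK complex and its adaptors, 2 of 20 genes were under 0.05 unadjusted, both lower with the bivalent antibody, and the median was -0.05. They were Dnaja3, a co-chaperone that binds MuSK (-0.21, SE 0.09), and Src, a tyrosine kinase that phosphorylates the receptor (-0.21, SE 0.10). Without replicate 1 the median of this list was -0.01, and 1 gene, Dnaja3, was under 0.05. The mean log2 level of the list differed by -0.17 in pair 1, -0.02 in pair 2, -0.01 in pair 3 and -0.02 in pair 4. On the acetylcholine receptor list 2 of 5 were under 0.05, both higher, with a median of 0.13. There were again 2 without replicate 1 of both groups, and 1 without monovalent replicate 1 alone. On the list of synaptic nucleus and basal lamina genes it was 1 of 19, Nes, which encodes the intermediate filament protein nestin, at -0.12 (SE 0.06).

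Genes of ERK feedback and the immediate early response report on signalling downstream of receptor tyrosine kinases. Of 22 tested, 15 had a fitted value under 0, as had 7142 of all 14605 genes tested. The median was -0.15, and 2 were under 0.05 unadjusted, Junb and Fos. Without replicate 1 the median was -0.10, and Fos, at -0.50 (SE 0.28), was not under 0.05. Junb had 282, 288, 336 and 342 CPM against 321, 299.9, 366 and 399 CPM (-0.15, SE 0.06), and Fos had 1.97, 2.32, 3.12 and 2.48 CPM against 3.33, 3.28, 4.71 and 3.23 CPM (-0.54, SE 0.26). Both transcription factor genes were lower with the bivalent antibody in 4 of 4 pairs, and the groups of Fos did not overlap. Genes lower in 4 of 4 pairs made up 7.02% of those tested. Myc had 4.08, 3.64, 3.60 and 3.98 CPM against 5.53, 4.14, 5.77 and 4.50 CPM, without overlap, and was not below 0.05 (-0.39, SE 0.21). Spred3, an inhibitor of the Ras-ERK pathway, was not either, and its value was above 0. It had 2.74, 3.19, 4.08 and 3.55 CPM against 3.06, 1.78, 1.61 and 2.71 CPM with overlapping groups (0.56, SE 0.30), and was at 0.83 (SE 0.34) without replicate 1. The mean log2 level of the list differed by -0.49 in pair 1, 0.13 in pair 2, -0.08 in pair 3 and -0.25 in pair 4.

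Muscle differentiation was read from sarcomere and myogenic genes. On the sarcomere list 5 of 29 genes were under 0.05 unadjusted, all higher with the bivalent antibody, with a median of 0.09. Without replicate 1 of both groups 4 were under 0.05, with a median of 0.09. Leaving out monovalent replicate 1 alone gave 2, with a median of 0.07. Tcap, 1 of the 5, was higher in 2 pairs and lower in 2 (0.34, SE 0.15), and at 0.15 (SE 0.17) without replicate 1. Tnnt3, fast troponin T, had 1782, 1722, 1381 and 1296 CPM against 1332, 1590.5, 1132 and 1183 CPM (0.24, SE 0.08), and Tnni1, slow troponin I, had 1514, 1614, 1341 and 1224.5 CPM against 1174, 1356.5, 1085 and 1218 CPM (0.23, SE 0.08). Without the replicate block Tnnt3 was at 0.24 (SE 0.19) and Tnni1 at 0.24 (SE 0.14). Myog, which encodes myogenin, had 597, 624, 669 and 598 CPM against 501, 554, 563 and 588 CPM with no overlap (0.17, SE 0.07), and was at 0.08 (SE 0.06) with length offsets. On the list of myogenic factors and fusion genes 2 of 14 were under 0.05, Myog and Mymx, both higher. The list had 7 values above and 7 below 0, from -1.10 to 0.49, and a median of -0.01. Mymx, the fusion peptide myomixer, was at 0.36 (SE 0.13), and at 0.22 (SE 0.10) without replicate 1. Tnnc2, fast troponin C, was at 0.16 (SE 0.08), and at 0.01 with length offsets. On the denervation list 3 of 14 were under 0.05, Chrna1 and Myog higher and Hdac4, a repressor induced by denervation, lower (-0.29, SE 0.12, and -0.14 without replicate 1).

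On the list of BMP targets and components 1 of 16 was under 0.05, Grem1, a secreted BMP antagonist, at 261, 246, 252 and 329 CPM against 285, 308, 359 and 376 CPM (-0.29, SE 0.10). MuSK also acts as a BMP co-receptor. On the list of receptor endocytosis 2 of 20 were under 0.05, Cltc, the clathrin heavy chain (-0.18, SE 0.08), and Dnm1, dynamin 1 (-0.51, SE 0.23). Without replicate 1 these were -0.09 and -0.35, and 0 of 20 were under 0.05. On the matrix list 5 of 21 were under 0.05, Ogn, Omd, Aspn, Spon2 and Tspan8. The list's median was -0.03, and 0.06 without replicate 1. Its mean log2 level differed by -0.04 in pair 1, 0.26 in pair 2, 0.18 in pair 3 and 0.14 in pair 4. The cell cycle list had 2 of 16, Tyms (0.33) and Ccna2 (0.57), with a median of 0.02, and of 0.22 without replicate 1. The mean log2 level of the cell cycle list differed by -0.60 in pair 1, 0.21 in pair 2, 0.37 in pair 3 and 0.12 in pair 4. The acute phase list had 1 of 13, Socs3 (-0.29, SE 0.12). Of the mitochondrially encoded genes it was 1 of 11, mt-Nd5 (0.23, SE 0.10, and 0.11 without replicate 1). Among genes of Fc receptors and antibody handling, 4 of 7 were expressed well enough to be tested and 0 were under 0.05. Interferon and antigen presentation genes had 0 of 13.

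**Figure D4:**
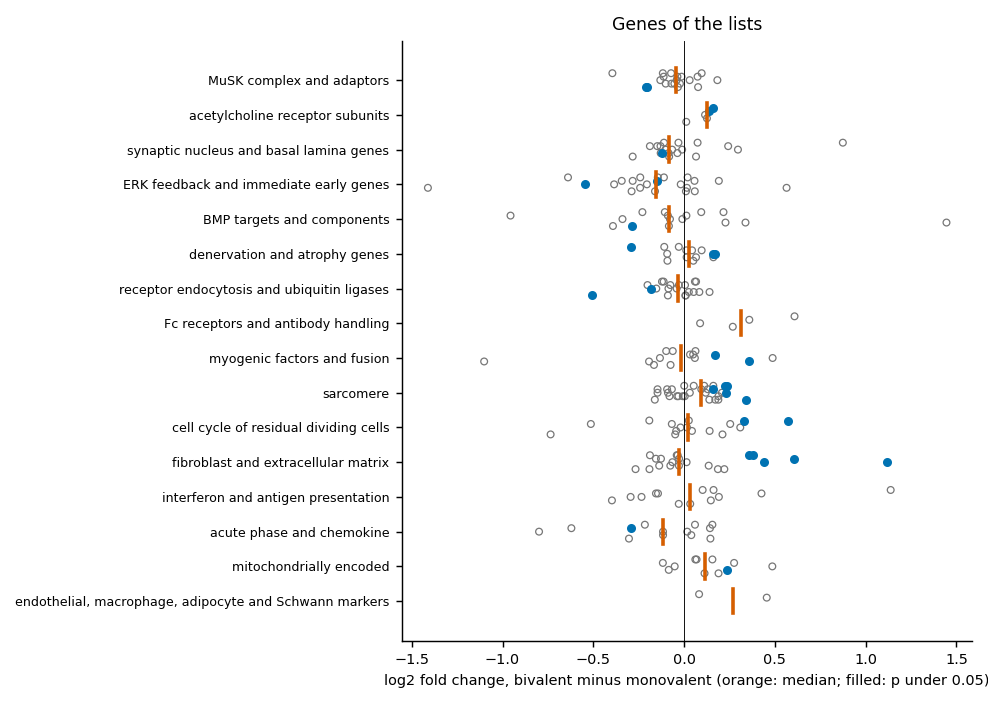
Log2 fold change, bivalent minus monovalent, of every tested gene of 16 lists, 1 line per list, with filled points for an unadjusted p-value under 0.05 and the median in orange. The medians lie between -0.15 and 0.31, the highest from the 4 genes of the Fc receptor list.

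The label of myotubes was checked against markers. All 8 myotube markers were present, with summed levels of 9813 to 11490 CPM in the bivalent and 8928 to 12910 CPM in the monovalent libraries. The 4 markers of undifferentiated myoblasts summed to 84.7 to 94.5 and 82.2 to 105 CPM. Most of it was Myod1, with means of 39.3 CPM in the bivalent and 41.0 CPM in the monovalent group, and Mki67, with 38.2 and 37.7 CPM. Pax7 had means of 1.67 and 1.18 CPM. Whether these transcripts came from undifferentiated cells was not tested. The 5 fibroblast markers summed to 865 to 1016 and 752 to 943 CPM, most of it Dcn, which muscle cells also express, and Thy1 was under 1 CPM on average. Their part in the matrix gene values was not tested. Endothelial and hepatocyte markers summed to at most 0.777 and 0.0457 CPM in any of the 8 libraries, and Cdh5, Adgre1, Ptprc, Alb and Apoa1 had 0 counts in every bivalent library. In bulk RNA, fewer cells of a type and less RNA per cell cannot be told apart.

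Library totals of the 8 ran from 18771259 to 22674974 counts. Mitochondrially encoded genes took 29.6% to 37.2% of each total. The mitochondrial ribosomal RNA gene mt-Rnr2 alone took 27.0% to 33.9%, which leaves less depth for other genes. Monovalent replicate 1 stood apart, with 16261 genes with counts where the other 7 had 17318 to 18138, at a total of 22397868. Among genes with a mean of 1 to 2 counts per library, 74.8% had no count in it, the highest share of all 20 libraries. Genes were put into 5 bins of equal size by total exon length. The median log2 difference of pair 1 was 0.33 in the bin of the shortest genes, 60 to 2064 bases, and -0.14 in that of the longest, 7196 to 123179 bases. In pairs 2, 3 and 4 the medians of the shortest bin were 0.04, 0.06 and -0.03. Over the 4 pairs, 132 of the 2920 shortest genes were under 0.05 unadjusted and higher with the bivalent antibody and 24 lower, compared with 32 and 118 of the 2919 longest. Across 14596 genes, which are not independent replicates, Spearman's rho between the fold change and exon length was -0.197, and -0.0558 without replicate 1. The part of this library in single gene values was not tested beyond the fits that leave it out.

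**Figure D5:**
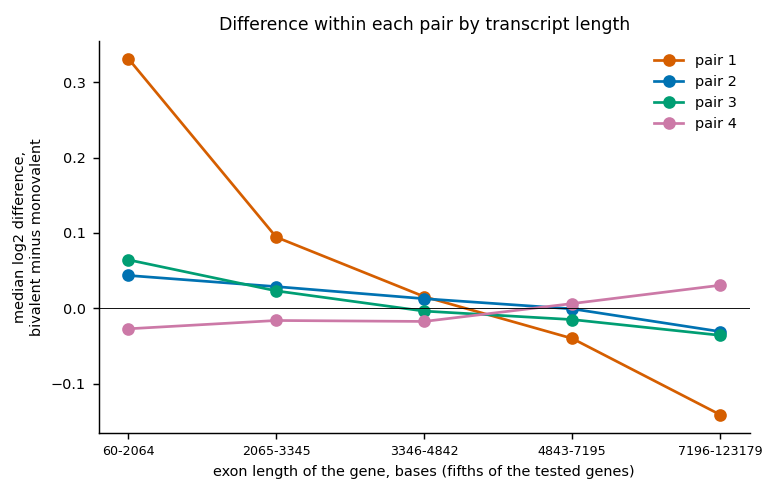
Median log2 difference, bivalent minus monovalent, within each of the 4 pairs (lines) against exon length in bases, in 5 bins of tested genes. Pair 1 runs from 0.33 for the shortest genes to -0.14 for the longest, and the other pairs stay between -0.04 and 0.06.

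Without monovalent replicate 1 alone, 0 genes were called and 507 had an unadjusted p-value under 0.05 (3.39%), down from 810. Length offsets, a smooth correction of each library for exon length, were added after the data were seen. With them 0 genes were called, 876 had an unadjusted p-value under 0.05, and 663 of these were among the 810. Ogn was then at 0.32 (SE 0.07), Omd at 1.08 (SE 0.29) and Chrna1 at 0.16 (SE 0.05), whereas Chrnb1 was at 0.09 (SE 0.06). Tnnt3 was at 0.15 (SE 0.06) and Cox7a1 at 1.02 (SE 0.31).

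Each group was also set against its own b12 group, the bivalent antibody against the control and the monovalent one against agrin with b12, to take the agrin step out on the assumption that effects add on the log scale. The difference between these differences passed adjustment in edgeR for 0 of 14605 genes (0%), and was below 0.05 before adjustment for 932 (6.38%), 3.55% higher and 2.83% lower. The smallest adjusted p-value was 0.479. DESeq2 and voom called 0 genes, with smallest adjusted p-values of 0.0676 and 0.207 and with 1041 and 803 genes below 0.05 before adjustment. Without replicate 1 it was again 0, with 704 below 0.05 (4.73%). Both sides of this contrast use the libraries of the direct comparison, so a gene high in one tends to be high in the other. Aspn had a difference of 1.21 (SE 0.26), Cox7a1 one of 1.86 (SE 0.44) and Ogn one of 0.41 (SE 0.10). Chrna1 was at 0.10 (SE 0.08), Chrnb1 at -0.03 (SE 0.09) and Musk at -0.05 (SE 0.12). The value of Chrnb1 had the opposite sign to its value in the direct comparison. By its terms the contrast equals the direct difference plus that of agrin with b12 minus the control. The latter was 0.61 (SE 0.18) for Aspn, 0.68 (SE 0.31) for Cox7a1, 0.06 (SE 0.07) for Ogn and -0.16 (SE 0.07) for Chrnb1. If 13-3B5xb12, described as inhibiting, blocks the agrin step, effects do not add and the contrast keeps that step. Whether effects add was not tested.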

How the data were processed

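Total RNA of 20 libraries was sequenced after ribosomal RNA removal with a stranded kit, per the labels' protocols. The authors deposited 1 table of raw whole-number counts per gene and library. Per the submitters' processing notes, Trim Galore 0.6.6, cutadapt 2.10, STAR 2.7.6a, HTSeq 0.12.4 and DESeq2 1.32.0 were used with GRCm38. The annotation release, strand setting and treatment of duplicate reads are not given in the sources used here. Overlapping or near-identical genes may therefore share reads. Of 26722 gene IDs, 26667 matched GENCODE M21, which gave positions and exon lengths. RefSeq promoter sequences (GRCm38.p6) matched 10 of 13 receptor and proteoglycan genes looked up by symbol, not Lrp4 or Rapsn or Chrnd.

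The deposited counts were tested with edgeR 4.0.16 under R 4.3.3. The filterByExpr function (minimum count 10) left 14605 genes. TMM factors scaled libraries, and 1 robust quasi-likelihood model with treatment and replicate number was fitted to all 20 libraries, so that 12 residual degrees of freedom remain. Tests were two-sided, adjusted by Benjamini-Hochberg over all genes, with a threshold of 0.05. Intervals are 95% and use the moderated degrees of freedom. Log2 CPM used a prior count of 2. The fit was tested on simulated data. Within each group, library pairs differed by more than sampling noise (chi-square per gene at least 6.77). Totals were 18424881 to 23343903 counts, where 3 counts are at most 0.163 CPM. Alternatives were no block, a 2-level block, only the 8 libraries, libraries left out, DESeq2 1.42.0, limma 3.58.1 voom, other filters and length offsets. The named genes were those of smallest p with 1 direction in 4 of 4 pairs and at least 1 CPM, up to 24, the receptor genes, 6 genes named in earlier results, and up to 4 per list. Members, lists and rules were chosen with earlier results of these data known. A listed marker gene is not reported here.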

Additional observations from a re-analysis of the deposited data

Results flagged for a closer look

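In each of both groups of 4 libraries, the gap of the most extreme library to its neighbour was compared with the range, for 218 sets of values. It was above Dixon's 95% limit in 9 sets, and chance flags about 1 in 20. In monovalent replicate 1 counts were found for 16261 genes, against 17811 to 18009 in the rest of its group. The same library had 18.362 CPM of Hikeshi against 23.6 to 24.6 in the others. Monovalent replicate 2 had 142.5 CPM of Chrnd against 114 to 116, and 3.8732 CPM of Fcgr4 against 1.96 to 2.29. Monovalent replicate 3 had 4.7075 CPM of Fos against 3.23 to 3.33. Bivalent replicate 3 had 167.72 CPM of Jpt1 against 148 to 149, 18.88 CPM of Gm35019 against 12.1 to 13.1, and 17.167 CPM of mt-Nd2 against 9.21 to 10.5. Bivalent replicate 1 had 19.262 CPM of Dok7 against 20.4 to 20.6.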

How the results depend on the processing

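The count of genes called stayed at 0 in 14 of 15 alternatives for the direct comparison and in 15 of 16 for the difference of differences. When no low-count filter was used, 17 and 28 genes were called, 13 and 17 of them higher. All of these genes were also tested in the main fit, so none was a gene that the filter had removed. Of the named genes the 17 held Ogn (edgeR adjusted p = 0.000932), Omd, Aspn and Mymx. The cause was not tested. Without the replicate block 0 genes were called in both, with 633 and 665 at an unadjusted p-value under 0.05, against 810 and 932 with it. Same-numbered libraries of both groups deviated together with correlations from 0.0533 in pair 1 to 0.235 in pair 3, with a mean of 0.153, and 2 of 4 bivalent libraries correlated best with their own number. The mean was 0.226 for the other number of the same set (replicates 1 and 2, or 3 and 4) and -0.190 for the opposite set. Deviations thus followed the set, and pairing by single number was not shown. A block of replicates 1 and 2 against 3 and 4 gave 0 genes. Leaving out libraries gave 0 genes, with 507 to 1123 and 669 to 1188 at an unadjusted p-value under 0.05. Length offsets and, for the difference of differences, removal of control replicate 2 or agrin with b12 replicate 3 were chosen after seeing the data.

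Of 90 named genes, 78 kept their direction in every alternative run. With libraries left out the ranges of log2 fold changes that crossed 0 were -0.089 to 0.033 for Lrp4, -0.15 to 0.17 for Agrn, -0.039 to 0.26 for Chrne, -0.077 to 0.070 for Chrng, -0.54 to 0.024 for Hp, -0.0077 to 0.12 for mt-Nd1, -0.29 to 0.040 for Mcm2, -0.030 to 0.29 for Ccl7, -0.17 to 0.72 for S100b and -0.37 to 0.35 for Cd68. Length offsets with the replicate block turned Lrp4 to 0.0073, Rapsn to -0.00043, mt-Nd1 to -0.075, mt-Rnr1 to -0.024 and Cd68 to -0.0016. Chrng was at -0.0012 without the replicate block, and Cd68 at -0.27 in voom. The causes were not tested. For genes under 1 CPM, depth limits what differences can be seen.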
